A study of Mus musculus with 8 samples.

Results

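The genes described here encode 4 muscarinic acetylcholine receptors (Chrm1, Chrm2, Chrm3 and Chrm4), 4 subunits of nicotinic acetylcholine receptors (Chrna4, Chrna5, Chrna7 and Chrnb2) and Lynx1, a protein that restrains nicotinic receptors. They were taken by symbol, and each of the 9 matched 1 of the 24883 rows of the expression table. RNA was sequenced from the visual cortex of adult C57BL/6J mice that had been given an oligonucleotide by cortical injection at 122 days of age. Tissue was collected 7 days later, at 129 days. The oligonucleotide was of the locked nucleic acid (LNA) type, whose chemically bridged sugars make it bind a complementary RNA tightly. It carried a scrambled sequence in 4 control samples and a sequence complementary to the microRNA miR-29a in 4 treated samples, called anti-miR-29a here. Both groups were injected, and no uninjected cortex was compared. Whether each sample was its own animal is not said in the labels, and p-values therefore measure only the spread among these samples, part of which may be technical.

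Acetylcholine reaches the cortex mainly from neurons of the basal forebrain and acts through receptors of both kinds. Muscarinic receptors work through G proteins: M1 and M3 act through Gq and phospholipase C, while M2 and M4 act through Gi and Go and lower cyclic AMP. Nicotinic receptors are ion channels built of subunits. Channels of alpha4 and beta2 subunits bind nicotine with high affinity, the alpha5 subunit joins some of them, and alpha7 subunits form channels of their own that pass calcium. Lynx1 is anchored in the neuronal membrane, resembles snake toxins that bind nicotinic receptors, and lowers the response of these receptors. It is known as a brake on plasticity in the adult visual cortex, which is the process the title of the series addresses.

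The comparison asked how these transcripts stood when miR-29a was blocked. A microRNA binds messages mainly through its seed, bases 2 to 8, so the seed and its matches are shown first. The mature sequences of the miR-29 family (RefSeq, GRCm38.p6) share 1 seed, given in capitals.
mmu-miR-29a-3p: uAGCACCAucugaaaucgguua
mmu-miR-29b-3p: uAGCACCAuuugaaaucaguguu
mmu-miR-29c-3p: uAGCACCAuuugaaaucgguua
The complement of the seed, TGGTGCT, was searched in the longest 3' UTR that GENCODE M21 annotates for a coding transcript of each gene. Of 8 searched members, Chrm1, Chrna4 and Chrnb2 held 1 match each. Lynx1, Chrm2, Chrm3, Chrna5 and Chrna7 held none. Among all tested genes with a 3' UTR, 15.8% held at least 1 match, in UTRs with a median length of 1230 nt against 2911 nt for the members. The matches are printed from the messenger strand with the 7 matching bases in capitals.
Chrm1: gctcaggtgagTGGTGCTaaaccaggcag
Chrna4: ggaaattcccaTGGTGCTctgctggccac
Chrnb2: caccacaagcaTGGTGCTgctttctcact
In mm10 coordinates the printed Chrm1 window is chr19:8680551-8680579 on the plus strand, and it is the only one of the 3 whose match is followed by an A, which makes it an 8mer. The Chrna4 window is chr2:181024366-181024394 and the Chrnb2 window is chr3:89752792-89752820, both on the minus strand. The Chrnb2 window lies beyond the end that RefSeq gives the gene (89753448), in the longer GENCODE model, where the gene overlaps Adar on the opposite strand. Chrm4 was not searched, because GENCODE M21 annotates its 1440 nt coding part alone and no 3' UTR.

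The table gives FPKM, by name fragment counts scaled to transcript length and to library size, which allows levels to be compared between genes. How the libraries were scaled is not given in the sources used here. Between 12538 and 12769 rows reached 1 FPKM in each library. If values were scaled by depth, the spacing of the lowest values put the depths of the libraries between 0.976 and 1.16 of that of scrambled replicate 1. Scrambled replicate 2 stood apart from the rest on the first principal component, at -33.9 against -10.6 to 15.8, so results are also given without it where it matters. Markers of cortical neurons were abundant, with summed levels of 1390 to 1512 FPKM for 5 genes of excitatory neurons. The 3 defining genes of cholinergic neurons, Chat, Slc18a3 and Slc5a7, summed to 0.116 to 0.549 FPKM in any library. Differences are limma estimates on log2(FPKM + 0.1), and a gene passed the test when its p, adjusted over all tested rows, was under 0.05. No member passed. Of 13912 tested rows 2 passed (0.0144%), and an unadjusted p under 0.05 was found for 7.54% of tested rows as higher and 3.18% as lower.

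**Figure D1:**
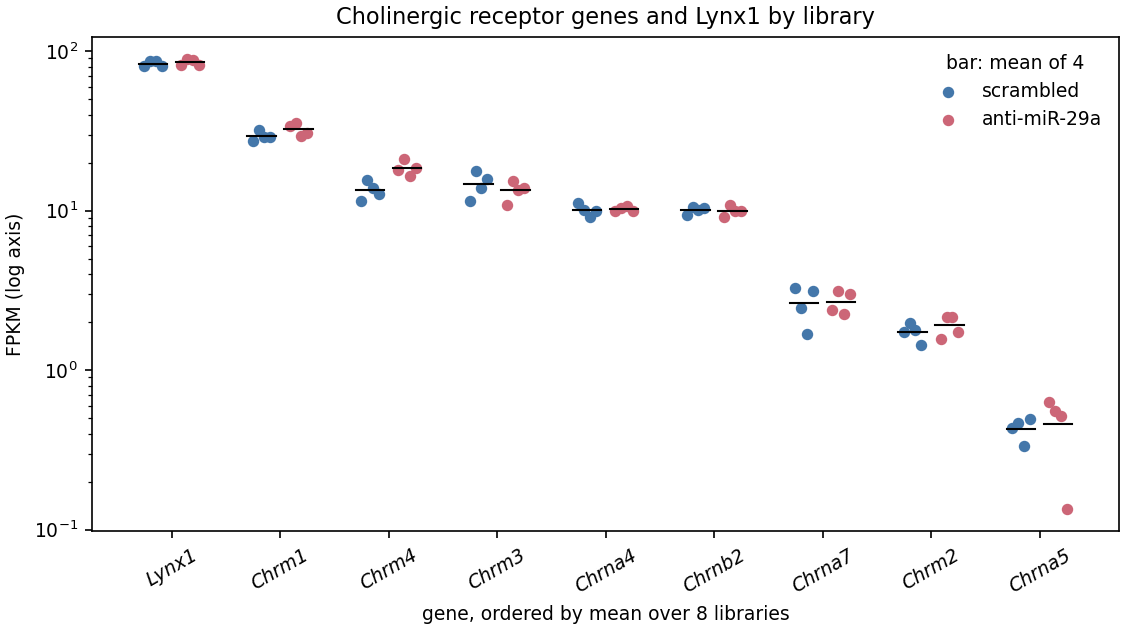
FPKM of each gene (log axis) in the 4 scrambled and 4 anti-miR-29a libraries, with a bar at each group mean. Lynx1 lies above every receptor gene, and Chrm4 is the gene whose anti-miR-29a points (16.5 to 21.2) all lie above its scrambled points (11.4 to 15.5).

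Lynx1 was the most abundant of the 9 transcripts and showed the narrowest interval. Its scrambled libraries gave 80.8, 86.2, 86.4 and 80.5 FPKM and its anti-miR-29a libraries 81.7, 89.0, 87.7 and 81.4 FPKM. The 2 groups cover nearly the same range, with means of 83.5 ± 3.25 and 85.0 ± 3.95 FPKM (SD, n = 4 per group). The log2 difference was 0.025, with a 95% interval of -0.085 to 0.14 (limma, adjusted p = 0.887). On the linear scale the interval runs from 0.942 to 1.10 times the scrambled level. The sign of this small difference turned to -0.028 under quantile normalization. The gene lies on the minus strand of chromosome 15 at 74747852 to 74753046 (mm10), overlaps no other annotated gene, and has a 3' UTR of 3379 nt. Lynx1 stood at the 95th percentile of tested genes by level (95.05).

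Among 8300 other genes of at least 5 FPKM on average, those with the profile nearest to Lynx1 over the 8 libraries were Wrb, Nudt16l1, Baalc, Ubl3 and Sqstm1. Likeness was the root mean square difference of centred log2 values, which was 0.0218 for Wrb and 0.0333 for Sqstm1. Their own log2 differences between groups lay between 0.019 and 0.048. Such a ranking favours genes that vary little, as Lynx1 does.

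Of the 4 muscarinic genes, Chrm1, Chrm4 and Chrm3 came next in level after Lynx1. Chrm4 was the one tested member whose groups did not overlap. Chrm4 encodes M4, the Gi-coupled receptor that is also prominent in the striatum. It read 11.4, 15.5, 14.0 and 12.7 FPKM in scrambled libraries and 18.0, 21.2, 16.5 and 18.6 FPKM in anti-miR-29a libraries. Each anti-miR-29a library was above the highest scrambled library, replicate 2. Means were 13.4 ± 1.73 and 18.6 ± 1.97 FPKM (SD, n = 4 per group), a log2 difference of 0.47 with a standard error of 0.11 and an interval of 0.23 to 0.71. Expressed as a fold this is 1.39 times, with an interval of 1.18 to 1.64. The difference did not pass over all genes (limma, adjusted p = 0.211). Among tested genes 4.02% had all anti-miR-29a libraries above all scrambled ones, and 4.0% had a difference at least as large. By p it ranked 85 of 13912. Groups were apart in either direction in 6.31% of tested genes, so 1 of 8 tested members is a share near the background.

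Several measurements sit beside the Chrm4 value. Leaving out any 1 library gave log2 differences of 0.40 to 0.54, the highest without scrambled replicate 2, and none of these passed. After a smooth dependence on GC content and transcript length was subtracted in each library, it was 0.36 (limma, adjusted p = 0.396). For Chrm4 that subtraction used the GENCODE model of 1440 nt and 57.0% GC, which has no 3' UTR. The RefSeq model of Chrm4 on chromosome 2 spans 91922189 to 91929835, against 91927249 to 91928688 in GENCODE M21, and its last 31 nt overlap Mdk. Mdk encodes midkine, a heparin-binding growth factor. Because the libraries do not mark strand, fragments in that overlap cannot be assigned by strand. Mdk read 16.1, 14.8, 21.2 and 11.7 FPKM in scrambled and 22.0, 19.5, 16.3 and 21.2 FPKM in anti-miR-29a libraries, with overlapping groups and a log2 difference of 0.33 (limma, adjusted p = 0.501). Striatal markers summed to 16.9 to 19.7 FPKM in scrambled and 14.3 to 18.1 FPKM in anti-miR-29a libraries, with 1 of 4 tested markers higher and none of the 5 in the table at 0 throughout. Other marker lists also moved in part, and no marker passed the test. Interneuron markers summed to 675.0 to 726.0 FPKM in scrambled and 704.1 to 795.3 FPKM in anti-miR-29a libraries, with 4 of 6 higher. Sst supplied most of that sum, at 501.1 ± 27.1 and 544.4 ± 44.98 FPKM (SD, n = 4 per group). Pvalb, of fast-spiking interneurons, was apart with higher values at 0.13 log2 units, while Gad1, which makes GABA, was apart with lower values at -0.073 and Gad2 stood at -0.016. After the same subtraction of length and GC content, Pvalb stood at 0.018.

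Markers of the meninges, the membranes over the cortex, summed to 7.75 to 16.01 FPKM in scrambled and 13.7 to 23.6 FPKM in anti-miR-29a libraries. All 4 were higher, with a median of 0.64, and the collagen gene Col1a1 and the transporter gene Slc6a13 stood at 0.80 and 0.85 log2 units with overlapping groups. Markers of neighbouring regions were mixed. Hippocampal markers summed to 23.7 to 30.3 and 24.7 to 32.1 FPKM, nearly all of it Wfs1, with 1 of 3 tested markers higher. Fibcd1 of that list was apart with lower values, at 1.32 ± 0.144 and 0.794 ± 0.112 FPKM (SD, n = 4 per group), or -0.67 log2 units. Thalamic markers summed to 15.2 to 23.4 and 16.2 to 17.8 FPKM, with 2 of 4 higher and Ramp3 apart with lower values at -0.40. Neurod6, of excitatory neurons, was also apart with lower values at -0.25, and 1 of 5 markers of these neurons was higher. After the subtraction of length and GC content, Fibcd1 stood at -0.70, Ramp3 at -0.51 and Neurod6 at -0.28. Oligodendrocyte markers were lower in 4 of 4 cases, with a median of -0.18. Astrocyte markers were higher in 2 of 4 (median 0.13), microglial ones in 1 of 4 (-0.066) and endothelial ones in 2 of 3 (0.16). The 1 higher microglial marker, C1qa, was the most abundant of its list, at 83.5 ± 16.1 and 102.9 ± 14.1 FPKM (SD, n = 4 per group). It stood at 0.31 log2 units (limma, adjusted p = 0.447). The groups overlapped for each marker of these glial and endothelial lists. No marker of the lists in these paragraphs was listed at 0 in all libraries. The part of these cell types and regions, and of Mdk, in the Chrm4 value was not tested. In tissue of many cell types, more cells that carry a transcript and more transcript per cell cannot be told apart.

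Chrm1 encodes M1, the main muscarinic receptor of cortical pyramidal neurons, and its 3' UTR holds the 8mer shown above. It read 27.5, 31.9, 29.1 and 29.04 FPKM in scrambled and 34.0, 35.5, 29.6 and 30.7 FPKM in anti-miR-29a libraries. All 4 anti-miR-29a libraries were above the scrambled mean of 29.4 ± 1.82 FPKM, but 2 of them lay below the highest scrambled value. The log2 difference was 0.14, with an interval of -0.024 to 0.31 (limma, adjusted p = 0.522).

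Chrm3 encodes M3, which like M1 acts through Gq. Its scrambled libraries read 11.5, 17.7, 13.9 and 15.7 FPKM and its anti-miR-29a libraries 10.9, 15.4, 13.4 and 13.9 FPKM. The groups overlapped across most of their ranges, with a log2 difference of -0.13 and an interval of -0.44 to 0.19 (limma, adjusted p = 0.785). Without scrambled replicate 2, which held the highest Chrm3 value, the difference was -0.032, and without anti-miR-29a replicate 1, which held the lowest, it was -0.031.

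Chrm2 encodes M2, the other Gi-coupled receptor, and was the least abundant muscarinic gene among the members. It read 1.73, 1.98, 1.79 and 1.43 FPKM in scrambled and 1.58, 2.17, 2.15 and 1.73 FPKM in anti-miR-29a libraries. The groups overlapped, and the log2 difference was 0.13 with an interval of -0.26 to 0.51 (limma, adjusted p = 0.824). It was 0.045 without scrambled replicate 4 and 0.21 without anti-miR-29a replicate 1. Chrm5, named after its values were seen, was listed at 0 in 6 libraries and read 0.159 and 0.124 FPKM in anti-miR-29a replicates 2 and 3.

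The order of the muscarinic genes differed in 1 place between the groups. Chrm3 was above Chrm4 in 3 of 4 scrambled libraries and below it in all 4 anti-miR-29a libraries. The ratio of Chrm4 to Chrm3 was 0.993, 0.875, 1.01 and 0.807 in scrambled libraries and 1.65, 1.38, 1.23 and 1.34 in anti-miR-29a libraries, which do not overlap. This pair was singled out after its values were seen, so the ratio is a description with no test. As a share of all muscarinic FPKM, Chrm4 was 22.6% ± 1.03 and 27.9% ± 0.886, and Chrm3 24.7% ± 2.23 and 20.2% ± 2.24 (SD, n = 4 per group). Chrm1 kept the largest share in every library, at 47.2% to 52.8%. These shares depend on the transcript lengths behind the FPKM values. The annotation used upstream is not given in the sources used here, and the 2 models of Chrm4 differ in length.

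**Figure D2:**
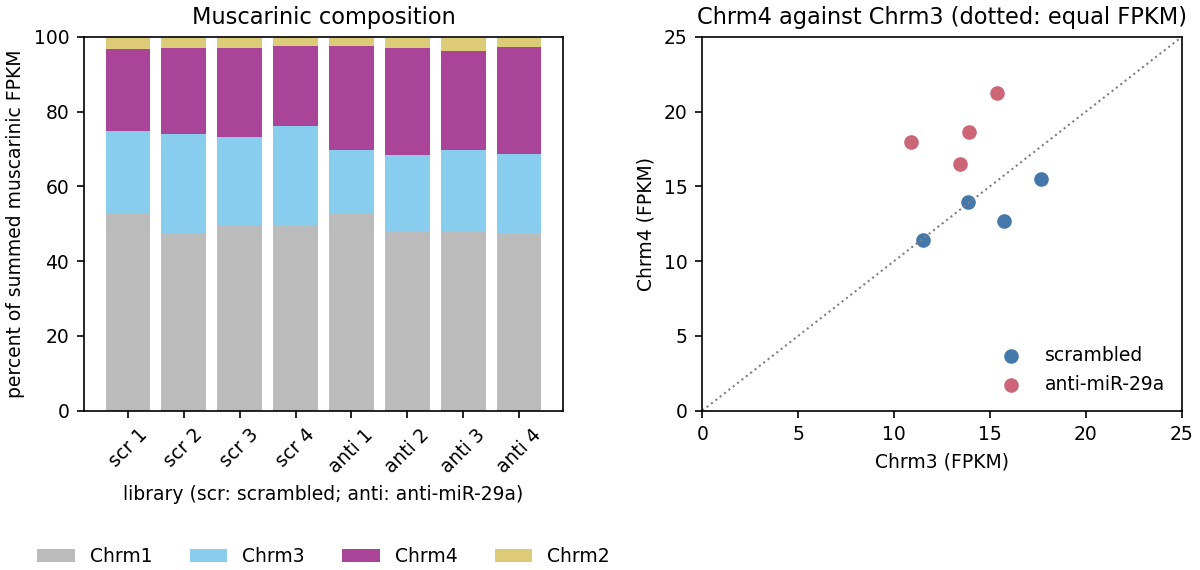
Left, share of each receptor in the summed muscarinic FPKM of each library. Right, Chrm4 against Chrm3 in FPKM, with a dotted line of equal levels: all 4 anti-miR-29a libraries lie above the line (ratios 1.23 to 1.65), and scrambled libraries lie near or under it (0.807 to 1.01).

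The nicotinic subunits showed no difference between groups that passed, and those of the main cortical channel were measured closely. Chrna4 read 11.2, 10.1, 9.09 and 9.99 FPKM in scrambled and 10.0, 10.4, 10.7 and 9.89 FPKM in anti-miR-29a libraries. All anti-miR-29a values lay inside the scrambled range, and the log2 difference was 0.024 with an interval of -0.15 to 0.20 (limma, adjusted p = 0.935). This sign also turned under quantile normalization, at -0.011.

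Chrnb2, the partner of Chrna4, read 9.35, 10.6, 10.1 and 10.4 FPKM in scrambled and 9.15, 10.9, 9.91 and 9.98 FPKM in anti-miR-29a libraries. Its log2 difference was -0.017 with an interval of -0.19 to 0.16 (limma, adjusted p = 0.954). The groups overlapped fully, although anti-miR-29a replicates 1 and 2 marked the lowest and highest of the 8 values. Both genes hold a match to the miR-29 seed, and their intervals on the linear scale run from 0.898 to 1.15 for Chrna4 and from 0.874 to 1.12 times the scrambled level for Chrnb2. The overlapping gene Adar read 32.1 ± 1.47 and 31.7 ± 0.682 FPKM (SD, n = 4 per group).

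Chrna7 was less abundant than either and more variable. Its scrambled libraries read 3.29, 2.47, 1.69 and 3.11 FPKM and its anti-miR-29a libraries 2.37, 3.13, 2.26 and 3.00 FPKM. Scrambled replicate 3 was the lowest of all, and without it the log2 difference of 0.057 became -0.13. Neither differed beyond the spread (limma, adjusted p = 0.942 with all libraries and 0.812 without that one). The interval ran from -0.42 to 0.54, so differences of either sign within it are compatible with these values.

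Chrna5 encodes the accessory alpha5 subunit, which in cortex is best known from deep-layer neurons. It was the one member below the filter of a mean of 0.5 FPKM and did not enter the limma fit. It read 0.431, 0.465, 0.333 and 0.491 FPKM in scrambled and 0.628, 0.551, 0.512 and 0.135 FPKM in anti-miR-29a libraries. In 3 anti-miR-29a libraries it was above every scrambled value, and in replicate 4 it was the lowest of all 8. The log2 difference was -0.043 (exact permutation test, two-sided, p = 1), and 0.33 without anti-miR-29a replicate 4 (exact permutation p = 0.0571). RefSeq extents of Chrna5 and Chrna3 share 1304 nt, and Chrna3 read 0.175 ± 0.0966 and 0.0708 ± 0.0839 FPKM (SD, n = 4 per group).

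By mean over the 8 libraries the order was Lynx1, Chrm1, Chrm4, Chrm3, Chrna4, Chrnb2, Chrna7, Chrm2 and Chrna5, from 84.2 to 0.443 FPKM. Neighbours in this order were apart in all libraries for Lynx1 and Chrm1, Chrm1 and Chrm4, Chrnb2 and Chrna7, and Chrm2 and Chrna5. The ranges of Chrm4 and Chrm3, Chrm3 and Chrna4, Chrna4 and Chrnb2, and Chrna7 and Chrm2 overlapped. Chrna4 was above Chrnb2 in 3 of 8 libraries, so that pair had no fixed order.

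**Figure D3:**
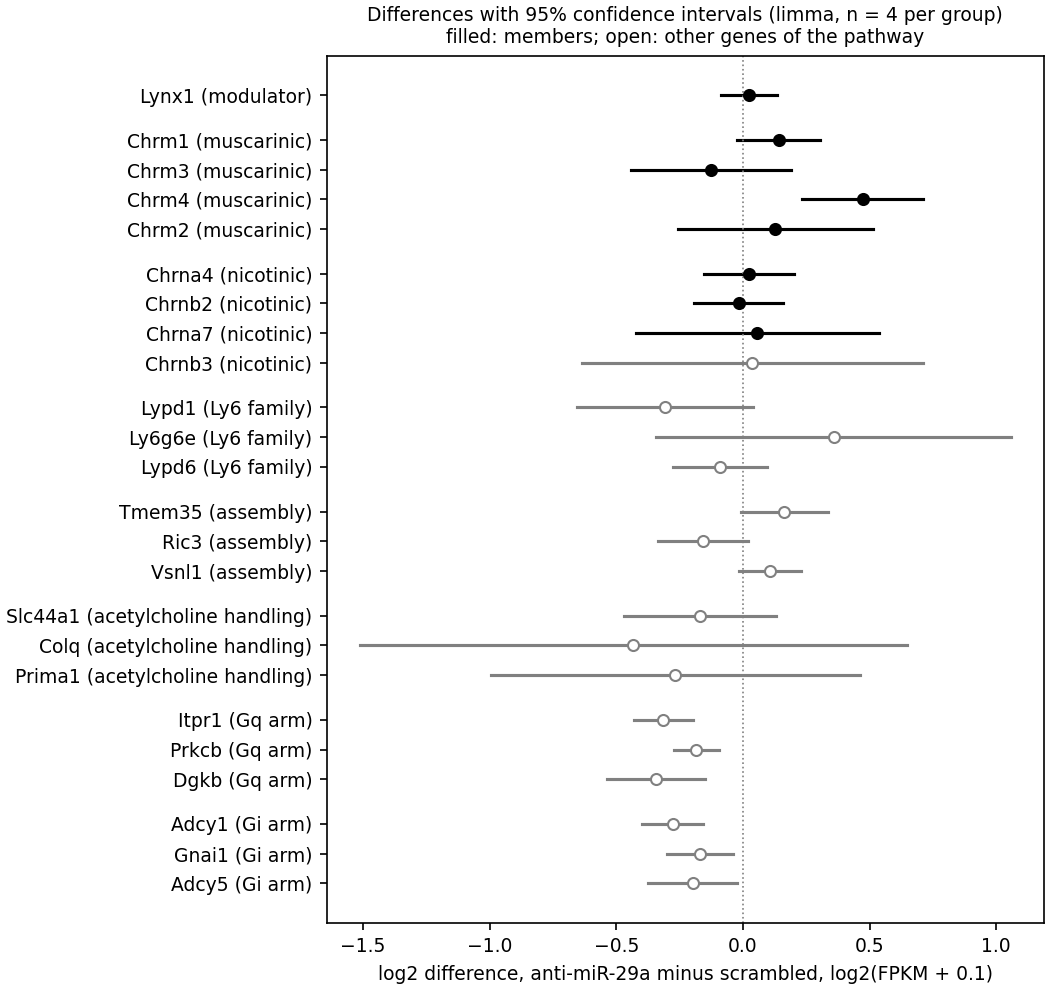
Log2 difference (anti-miR-29a minus scrambled) with its 95% confidence interval from limma, for the tested members (filled) and for other genes of the pathway chosen by rule (open). Only Chrm4 among the members has an interval that stays above 0 (0.23 to 0.71). The Gq and Gi genes shown are the 3 of smallest p in each list, so their intervals below 0 follow from that choice. Other tested genes of these lists had intervals that include 0, such as Plcb1 (-0.30 to 0.087).

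Of the 13 other receptor genes of both kinds, 4 (Chrna9, Chrna10, Chrnd and Chrng) were listed at 0 in all libraries and 8 had means of 0.00696 to 0.400 FPKM, below the filter. Chrnb3 alone passed it, and read 0.836, 1.45, 0.737 and 0.630 FPKM in scrambled and 0.691, 0.845, 0.877 and 1.24 FPKM in anti-miR-29a libraries. Its groups overlapped (log2 difference 0.036; limma, adjusted p = 0.977).

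Lynx1 belongs to the Ly6 family, several members of which bind nicotinic receptors. Of 10 listed relatives 6 were tested, 3 were higher and 3 lower, none passed, and no groups were apart. Ly6h and Ly6e, named after their values were seen, exceeded Lynx1 in level, at 110.5 ± 11.7 and 141.0 ± 11.1 FPKM in scrambled libraries (SD, n = 4). Lypd1, also called Lynx2, stood at -0.31 log2 units (16.1 ± 3.73 and 12.8 ± 1.74 FPKM; limma, adjusted p = 0.505). Without scrambled replicate 4 it stood at -0.17. Ly6g6e stood at 0.36, and at 0.14 without anti-miR-29a replicate 4. Lypd6 stood at -0.09.

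Factors that help nicotinic receptors fold and reach the surface gave no call either. Of 4 tested genes 2 were higher and 2 lower, with Tmem35, whose product NACHO is a receptor chaperone, at 0.16, Ric3, another chaperone, at -0.16 and Vsnl1, a neuronal calcium sensor, at 0.11 log2 units. Genes of acetylcholine synthesis, transport and breakdown were lower in 4 of 4 tested cases, with a median of -0.22 beside 0.026 for all tested genes, and none passed. Slc44a1, a choline transporter, stood at -0.17. Over the fits without 1 library it ran from -0.28 to -0.058, the latter without scrambled replicate 1. Colq and Prima1, which anchor acetylcholinesterase, stood at -0.43 and -0.27, and each rested on 1 library: Colq was -0.023 without anti-miR-29a replicate 1, and Prima1 was 0.010 without scrambled replicate 2. Ache, acetylcholinesterase itself and named after its values were seen, read 15.7 ± 0.448 and 15.6 ± 1.25 FPKM (SD, n = 4 per group). Its log2 difference was -0.0089.

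Downstream of M1 and M3, 12 of 17 tested genes of the Gq arm were lower, with a median of -0.086, and none passed. In 5 of them the groups did not overlap, all with lower anti-miR-29a values, where 2.29% of tested genes had that pattern. Itpr1, the receptor that releases calcium in response to inositol trisphosphate, read 43.1, 47.4, 48.8 and 47.0 FPKM in scrambled and 36.6, 38.2, 36.8 and 38.0 FPKM in anti-miR-29a libraries. Every anti-miR-29a library was thus below every scrambled one, by 0.31 log2 units on average (limma, adjusted p = 0.106). Prkcb, a protein kinase C, and Dgkb, a diacylglycerol kinase, stood at -0.18 and -0.34. Gnaq, the Gq subunit itself, was named after its values were seen and stood at -0.21.

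Downstream of M2 and M4, 10 of 15 tested genes of the Gi arm were lower, with a median of -0.055, and none passed. The groups were apart in 3 of them, all lower, where 2.29% of tested genes had that pattern. Adcy1, a cyclase stimulated by calcium, read 59.1, 54.1, 54.9 and 60.5 FPKM in scrambled and 45.5, 48.0, 45.9 and 48.9 FPKM in anti-miR-29a libraries. The groups were apart by -0.28 log2 units (limma, adjusted p = 0.164). Gnai1, a Gi subunit, stood at -0.17, and Gnao1, the Go subunit and named after its values were seen, at -0.034. Both were among the 3 genes apart, although the interval of Gnao1 included 0 (-0.11 to 0.039). Adcy5 stood at -0.20 with overlapping groups. After the same subtraction of length and GC content, Itpr1 stood at -0.24, Dgkb at -0.28, Adcy1 at -0.20 and Gnaq at -0.18. Prkcb stood farther from 0 than before, at -0.24, and Gnai1 at -0.18, and none passed. Across the tested members 6 of 8 differences were above 0, with a median of 0.041, where 56.6% of all tested genes were above 0.

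**Figure D4:**
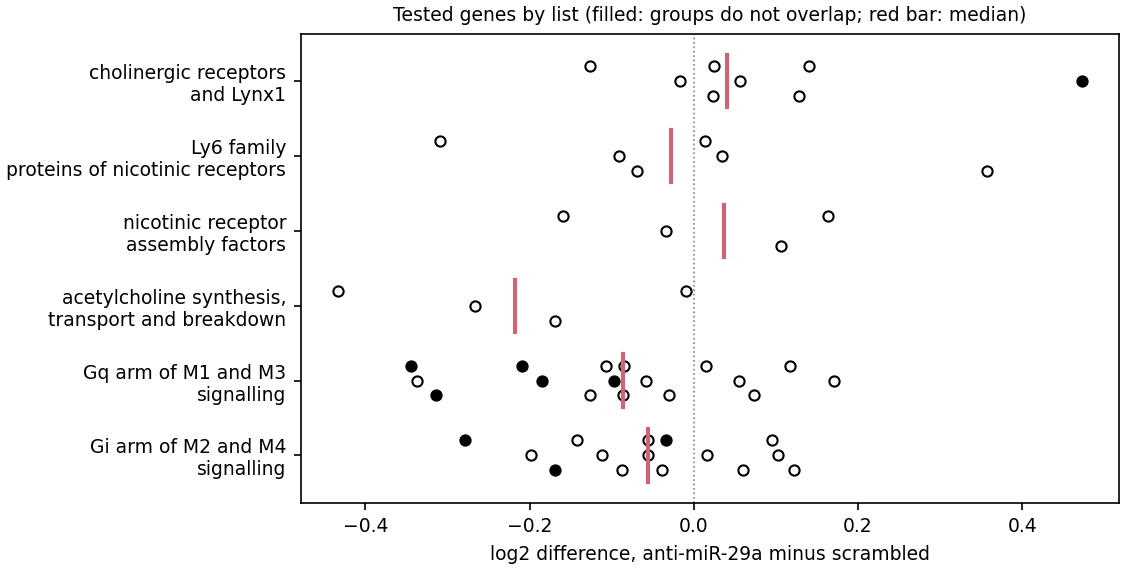
Log2 difference of each tested gene by list, filled where the 2 groups of libraries do not overlap, with the list median in red. Chrm4 (0.47) is the filled point of the receptor list, and the filled points of the Gq and Gi arms, 5 and 3 genes, all lie below 0. Over all tested genes 4.02% were apart as higher and 2.29% as lower.

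**Figure D5:**
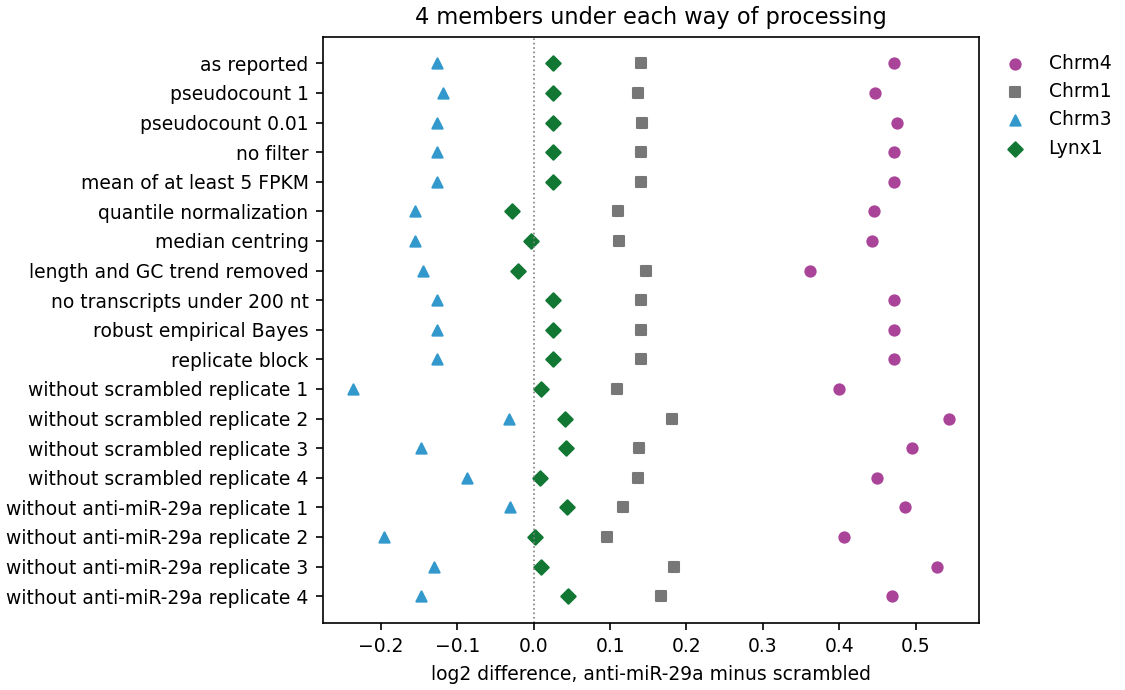
Log2 difference of Chrm4, Chrm1, Chrm3 and Lynx1 as reported and under each of 18 other ways of processing or sets of libraries. Chrm4 stays between 0.36 and 0.54, Chrm1 between 0.096 and 0.18, Chrm3 between -0.24 and -0.031, and Lynx1 between -0.028 and 0.045.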

How the data were processed

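RNA sequencing of 8 cortex samples was available as a single table of FPKM per gene, made by the authors. CASAVA 1.8.2, Bowtie and Cuffnorm with the build mm10 are named, per the submitters' processing notes, with annotation, scaling and step order not given in the sources used here. Per the labels' protocols, libraries were made with a TruSeq kit, in a version that does not mark strand. Rows with a mean of at least 0.5 FPKM (13912) were fitted as log2(FPKM + 0.1) in R 4.3.3 by limma 3.58.1, using a group term, a variance trend and Benjamini-Hochberg adjustment. A fold on this scale understates the difference of low genes. The fit was tested on simulated data. Chrna5, below the filter, had an exact permutation test over 70 relabellings.

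Total read counts were not used here. Low values lay on the spacing of whole reads for 26.7% to 35.4% of genes within 0.02 log2 units, against 3.74% to 6.16% on a shifted grid, too few to recover reads. Gene models came from GENCODE M21 (GRCm38, the assembly of mm10), which matched 99.28% of tested symbols. The named genes include the members, other receptor genes above the filter, for each pathway list up to 3 genes with the smallest p, and the 5 nearest to Lynx1. They also include genes that overlap a member and genes marked in the text as named after their values were seen. Marker lists are given by their sums, counts or medians, and single markers are named where their groups were apart or where they bear on a sum or list median. The members and lists were chosen with earlier results of these data known. Alternatives were other pseudocounts, filters and normalizations, loess removal of length and GC content, leaving out transcripts under 200 nt, a block for replicate number, robust empirical Bayes and fits without 1 library. Some genes of these lists are not reported here by name.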

Additional observations from a re-analysis of the deposited data

How the results depend on the processing

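No member passed the threshold under any of the alternatives that could be fitted for it. Chrm4 kept a positive difference in all 18, with adjusted p of 0.157 to 0.419. The number of genes that passed over the whole table was 2 as reported, 1 with no filter, 1 with a mean of at least 5 FPKM, 10 with robust empirical Bayes, and 1 to 3 when 1 library was left out. By limma it was 0 after removal of the trend in length and GC content, without transcripts under 200 nt and with the replicate number as a block, where 1163, 1507 and 1476 genes had an unadjusted p under 0.05. Some differences near 0 changed sign. Under quantile normalization, median centring and removal of the length and GC trend Lynx1 stood at -0.028, -0.0043 and -0.020 and Chrna4 at -0.011, -0.0057 and -0.0095. Over the fits without 1 library, log2 differences ranged from -0.025 to 0.073 for Chrna4, -0.060 to 0.023 for Chrnb2, -0.13 to 0.17 for Chrna7, -0.11 to 0.26 for Chrnb3, -0.44 to 0.010 for Prima1 and -0.21 to 0.33 for Chrna5, which stood at 0.014 with a pseudocount of 1. The cause was not tested. Whether replicate numbers pair the samples is not said in the labels. Same-numbered deviations correlated at 0.00012 to 0.058, and 2 of 8 libraries correlated best with their own number. Such weak correlations show no pairing but cannot exclude it. With the replicate block Chrm4 had an adjusted p of 0.258, and the block changed no member's call.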

Other observations

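The balance of Lynx1 to the main nicotinic subunits, a pair of ratios chosen after the values were seen, was alike in both groups. Lynx1 FPKM exceeded Chrnb2 FPKM by 8.28 ± 0.421 times in scrambled and 8.53 ± 0.422 times in anti-miR-29a libraries (SD, n = 4 per group). Against Chrna4 the ratio was 8.32 ± 0.949 and 8.29 ± 0.202, and it varied most among scrambled libraries, from 7.23 in replicate 1 to 9.51 in replicate 3. The ratio of Chrna4 to Chrnb2 lay between 0.903 and 1.20 over the 8 libraries.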
